A study of Mus musculus with 19 samples.

Results

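The 35 genes described here encode cyclins, cyclin-dependent kinases (CDKs), CDK inhibitors and a few genes that mark or control proliferation. They were taken by gene symbol from a liver RNA-seq table, and all 35 were found among its 24054 genes. They comprise 9 cyclins of the cell cycle (Ccna2, Ccnb1, Ccnb2, Ccnd1, Ccnd2, Ccnd3, Ccne1, Ccne2 and Ccnf), 3 cyclins of the G and I classes (Ccng1, Ccng2 and Ccni) and 7 transcriptional cyclins (Ccnc, Ccnh, Ccnk, Ccnl1, Ccnl2, Ccnt1 and Ccnt2). The rest are 4 cell cycle CDKs (Cdk1, Cdk2, Cdk4 and Cdk6), 4 transcriptional CDKs (Cdk7, Cdk8, Cdk9 and Cdk12), 4 inhibitors (Cdkn1a, Cdkn1b, Cdkn1c and Cdkn2c), the proliferation markers Mki67 and Top2a, and Rb1 and E2f1.

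The study deleted Raly, which encodes a heterogeneous nuclear ribonucleoprotein (an RNA-binding protein of the nucleus), from mouse liver and measured which transcripts changed. All mice were Raly flox/flox on the C57BL/6 background and ate chow, and the study used males unless it specified otherwise. The L-RalyKO group (3 mice) received AAV8.TBG.Cre and the control group (3 mice) received AAV8.TBG.GFP, so both groups carried floxed alleles and a viral vector, although the labels name the controls wild type. Livers were taken 4 weeks after the virus, and the age of these mice is not given in the sources used here. The TBG promoter directs Cre to hepatocytes, so the other cells of the liver kept Raly, and the RNA came from whole tissue.

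Cyclins bind and activate CDKs. The D, E, A and B cyclins act with their CDKs in turn to carry a cell through G1, S phase and mitosis, partly by phosphorylating the retinoblastoma protein and releasing E2F transcription factors, and the CDKN1 and CDKN2 proteins restrain them. The transcriptional cyclins instead act with CDKs on RNA polymerase II, and cyclin T with CDK9 forms P-TEFb, which releases paused polymerase into elongation. Most hepatocytes of an adult liver rest outside the cell cycle and re-enter it after tissue loss, with cyclin D1 among the early inducible regulators.

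Values are reads scaled to the effective library size (CPM with TMM factors) and were not divided by gene length. Log2 fold changes from limma are differences of log2(value + 1), a scale that understates changes of low genes. Libraries held between 28302983 and 37132274 reads on genes in controls and between 34660211 and 38052705 in L-RalyKO mice, and 3 reads correspond to values of 0.0789 to 0.105. Raly measured 50.1, 48.6 and 46.8 in controls and 6.34, 6.62 and 7.39 in L-RalyKO mice, a log2 fold change of -2.67 (limma, SE 0.069, adjusted p = 6.92e-07). Control mouse 1 stood apart from its group: the chi-square per degree of freedom over genes was 71.1 and 84.3 against the other controls and 18.2 between those, while L-RalyKO pairs ranged from 12.6 to 27.4. Across 11580 genes whose values averaged 1 or more, limma called 758 at an adjusted p under 0.05, of which 389 were higher and 369 lower in L-RalyKO livers. Scaling by total counts gave 325 higher and 470 lower. Without control mouse 1, 2 or 3 the count was 368, 540 or 812, and without L-RalyKO mouse 1, 2 or 3 it was 335, 440 or 502.

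Among the 35 genes, 31 passed the filter on low values, and 3 of them changed at an adjusted p under 0.05 in limma, which is 9.68% against 6.55% of all genes tested. Ccnd1 and Ccng2 rose, where 3.36% of all tested genes were called higher, and Ccnt1 fell, where 3.19% were called lower. At an unadjusted p under 0.05 there were 15 (12 higher and 3 lower), against 22.7% of all genes. The values of the groups did not overlap for 14 of the 31 (45.2%), against 28.1% of all tested genes. In 12 of these genes every L-RalyKO mouse lay above every control, which held for 14.4% of all tested genes, and in Ccnt1 and Cdk7 every L-RalyKO mouse lay below, which held for 13.7%. The median log2 fold change of the 31 was 0.14, against 0.00 over all tested genes. DESeq2 on the recovered reads called 6 of the 31, where it called 1088 of all 11580 genes, and limma without control mouse 3 called 5, where it called 812 of 11580. For a single gene, 3 mice against 3 cannot go below p = 0.1 in a two-sided exact permutation test, and every non-overlapping gene had that value.

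**Figure D1:**
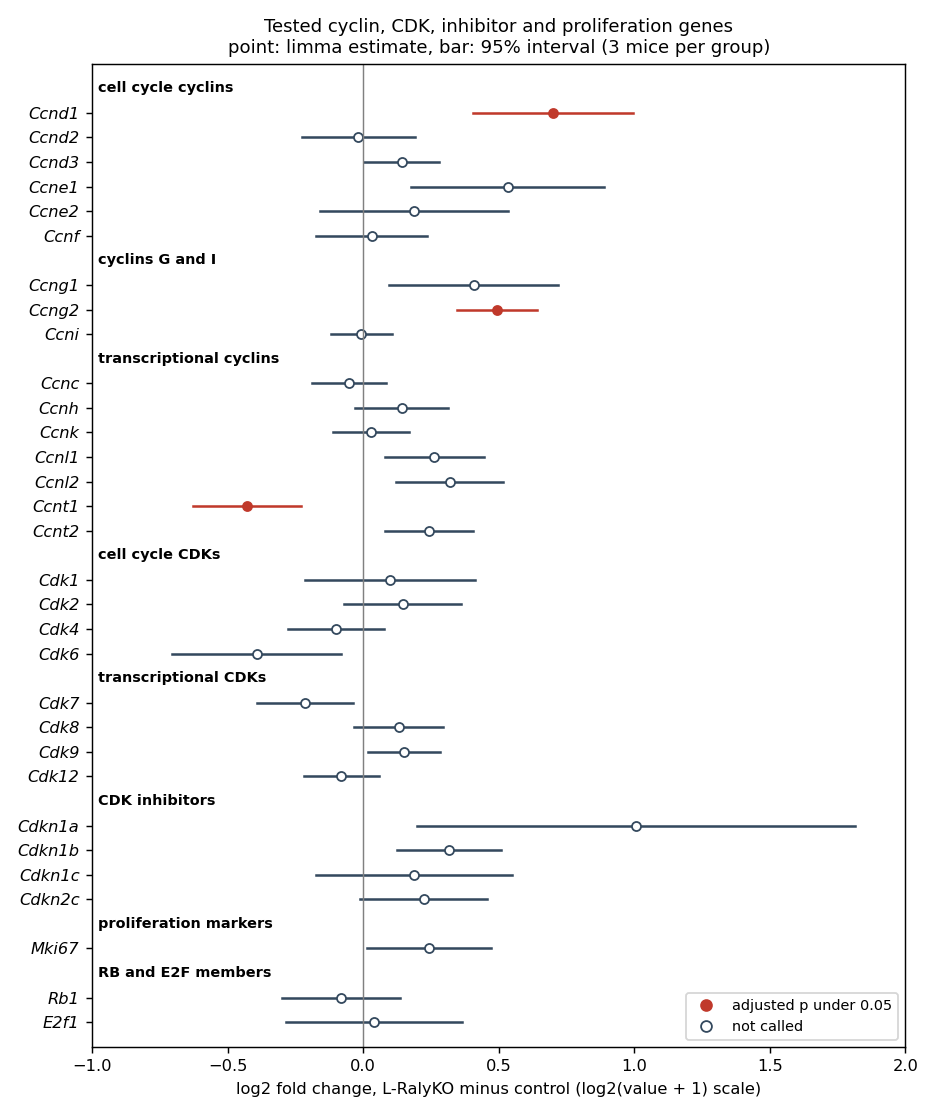
Log2 fold change (L-RalyKO minus control, log2(value + 1) scale, horizontal axis) of the 31 tested genes by role, with the limma estimate as a point and its 95% interval as a bar. Filled points are the 3 genes with an adjusted p under 0.05, Ccnd1 at 0.70, Ccng2 at 0.49 and Ccnt1 at -0.43, and Cdkn1a has the widest interval, from 0.20 to 1.81.

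Genes of the cell cycle and of transcription were set side by side. Of 21 genes of the cell cycle (A, B, D, E and F cyclins, their CDKs, the inhibitors, the markers, Rb1 and E2f1), 17 were tested and limma called 1 (Ccnd1), or 5.88% against 6.55% of all tested genes. In 7 the groups did not overlap, all with L-RalyKO higher (41.2%, against 28.1% of all tested genes), and the median log2 fold change was 0.15. Of 11 transcriptional cyclins and CDKs, all tested, limma called 1 (Ccnt1), or 9.09% against the same 6.55%. In 6 the groups did not overlap, 4 with L-RalyKO higher and 2 with L-RalyKO lower (54.5%, against the same 28.1%), and the median was 0.13. No test of the difference between these classes was made.

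Ccnd1, which encodes cyclin D1, rose the most of the called genes in the list. It measured 11.8, 9.08 and 11.0 in controls and 16.6, 15.8 and 21.7 in L-RalyKO mice, or 10.6 ± 1.41 against 18.0 ± 3.20 (SD, n = 3 each). Every L-RalyKO mouse was above every control, and L-RalyKO mouse 3 was the highest. The ratio of means was 1.69 and the log2 fold change 0.70 (limma, 95% interval 0.41 to 0.997, SE 0.13, adjusted p = 0.0174). The adjusted p stayed between 1.06e-05 and 0.0464 over 16 alternative settings, each of which called the gene. The gene model lies on chromosome 7 from 152115836 to 152125774 on the minus strand (mm9), and 818 exonic bases overlap Oraov1 on the plus strand. Oraov1 measured 9.84, 10.9 and 10.2 in controls and 8.55, 8.47 and 8.03 in L-RalyKO mice (log2 fold change -0.28, limma adjusted p = 0.0568), a difference opposite in sign to that of Ccnd1. Whether reads were counted by strand is not stated, so reads in the shared exons cannot be assigned.

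The other D cyclins bind the same kinases, CDK4 and CDK6, but differed from Ccnd1 in their values. Ccnd2 measured 8.73, 8.84 and 7.62 in controls and 9.08, 7.46 and 8.34 in L-RalyKO mice. These groups overlapped, and the interval of its log2 fold change ran from -0.23 to 0.19 (limma adjusted p = 0.937). Ccnd3, with the highest value of the D cyclins, measured 30.3, 27.8 and 26.7 in controls and 31.7, 30.6 and 31.3 in L-RalyKO mice. All L-RalyKO mice were higher than all controls, but by a log2 fold change of 0.14 that was not called (limma adjusted p = 0.213). The ratio of Ccnd1 to Ccnd2 values within a mouse was 1.36, 1.028 and 1.44 in controls and 1.82, 2.11 and 2.60 in L-RalyKO mice. These did not overlap (exact permutation p = 0.1, two-sided). Ccnd1 alone already separated the groups, so this ratio is given as a description.

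**Figure D2:**
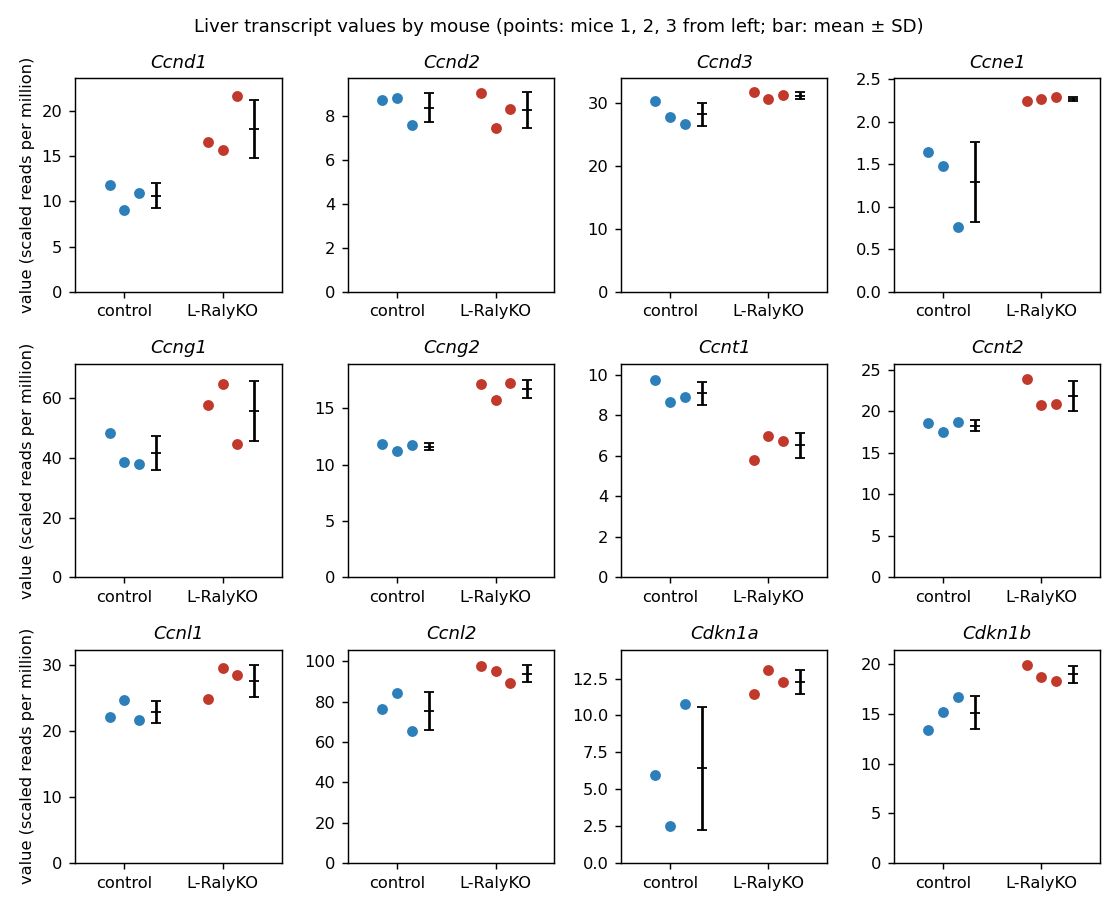
Values (reads scaled to the effective library size, in CPM, vertical axes from 0) of 12 genes in each control (left) and L-RalyKO (right) mouse, in the order of mouse number, with the mean ± SD beside the points. Ccnd1, Ccng2 and Ccnt1 have separate groups and were called, Ccnd2 and Ccng1 have groups that overlap, and the controls of Cdkn1a spread from 2.49 to 10.8.

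Cyclin E1 and cyclin E2 activate CDK2 at entry into S phase. Ccne1 measured 1.64, 1.47 and 0.757 in controls and 2.24, 2.26 and 2.29 in L-RalyKO mice, with no overlap. Its log2 fold change of 0.53 (SE 0.16) did not pass the test (limma adjusted p = 0.0813, and 0.0591 to 0.185 over the alternatives). The ratio of means was 1.755, and a pseudocount of 0.1 gave a log2 fold change of 0.83. Ccne2 had overlapping groups, 1.58 to 2.62 in controls and 2.03 to 2.92 in L-RalyKO mice (log2 fold change 0.19, limma adjusted p = 0.514). It shares 609 exonic bases with Ints8 on the opposite strand, which had a mean value of 18.4. Ccnf, an F-box protein that targets others for degradation, also overlapped, from 10.9 to 13.1 and from 11.4 to 13.5 (log2 fold change 0.03, limma adjusted p = 0.882).

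The S phase and mitotic cyclins were close to the limit of detection, so they are given in recovered reads per library. Ccna2 had 20, 14 and 29 reads in controls and 46, 36 and 40 in L-RalyKO mice, and its scaled values of 0.596, 0.491 and 0.784 lay below all of 1.34, 1.04 and 1.05. With the filter lowered to a mean value of 0.5, its log2 fold change was 0.40 on the log2(value + 1) scale (limma adjusted p = 0.0783). The ratio of means was 1.84, a larger change, since that scale understates changes of genes this low. Ccna2 shares 512 exonic bases with Exosc9 on the opposite strand, whose values overlapped between groups (limma adjusted p = 0.840). Exosc9 had a mean value of 9.68 against 0.884 for Ccna2. Whether reads were counted by strand is not stated, so reads in the exons shared with Exosc9 cannot be assigned. Ccnb1, a partner of CDK1 in mitosis, had 4, 6 and 4 reads in controls and 9, 4 and 13 in L-RalyKO mice. Ccnb2 had 15, 15 and 19 against 22, 11 and 14. Both overlapped between groups, and with every gene with a read tested their log2 fold changes were 0.11 and -0.06 (limma adjusted p = 0.486 and 0.796). Their ratios of means were 1.645 and 0.893. Top2a, a topoisomerase of dividing cells, had 28, 16 and 31 against 26, 43 and 49, an overlap as well (ratio of means 1.47, log2 fold change 0.26 and limma adjusted p = 0.311 with the lowered filter).

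**Figure D3:**
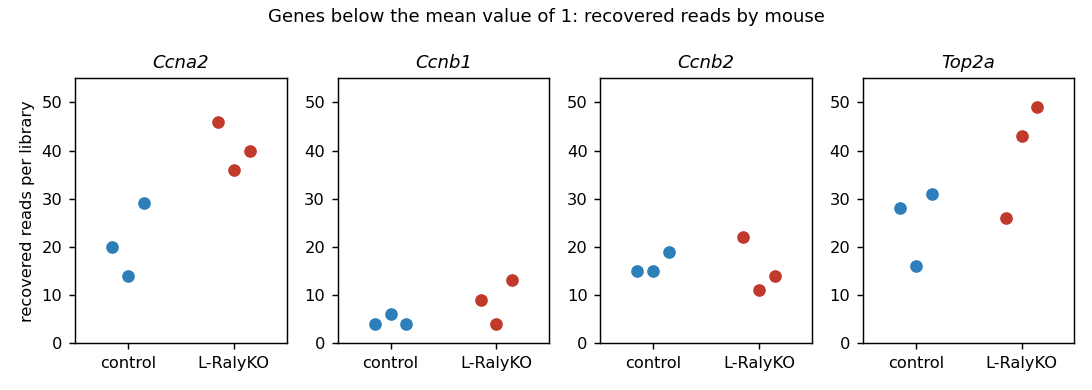
Recovered reads per library (vertical axis, not scaled for depth) of the 4 genes under the filter on low values, in each control and L-RalyKO mouse in the order of mouse number. Ccna2 is the one whose L-RalyKO points, 36 to 46 reads, all lie above the controls, 14 to 29 reads.

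Mki67, which encodes the proliferation antigen Ki-67, measured 1.43, 1.61 and 1.38 in controls and 2.01, 1.80 and 1.97 in L-RalyKO mice. The groups did not overlap, and the log2 fold change of 0.24 (ratio of means 1.31) was not called (limma adjusted p = 0.199). Among the cell cycle kinases none was called. Cdk1, the mitotic kinase, lay between 0.807 and 1.27 in controls and between 0.899 and 1.34 in L-RalyKO mice (log2 fold change 0.10, limma adjusted p = 0.727). Cdk2 gave 0.15 (limma adjusted p = 0.407) and Cdk4 gave -0.10 (limma adjusted p = 0.492, interval -0.28 to 0.08). Cdk4 shares 604 exonic bases with Tspan31 on the other strand, which had a mean value of 195.7. Cdk6 measured 1.997, 2.63 and 2.81 against 2.01, 1.34 and 1.61, overlapping by a single control, with a log2 fold change of -0.39 (ratio of means 0.665, limma adjusted p = 0.130). Rb1 and E2f1, the substrate of the D cyclin kinases and a factor it holds back, gave -0.08 and 0.04 (limma adjusted p = 0.669 and 0.907).

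All 4 inhibitors had log2 fold changes above 0, as did 5925 of all 11580 tested genes. None was called in limma with all mice, where 2 had an unadjusted p under 0.05, against 22.7% of all tested genes. Cdkn1a, which encodes p21, a p53 target that binds cyclin-CDK complexes, measured 5.99, 2.49 and 10.8 in controls and 11.4, 13.1 and 12.3 in L-RalyKO mice. Control mouse 3 was close to the L-RalyKO mice and control mouse 2 far below them, so the groups did not overlap although the controls varied over a wide range (coefficient of variation 64.9%, against 6.86% in L-RalyKO mice). Its log2 fold change of 1.01 (SE 0.35) had a limma adjusted p of 0.134. Leaving out control mouse 3 gave 1.42 with a limma adjusted p of 0.0173, and leaving out control mouse 2 gave 0.55.

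Cdkn1b, which encodes p27, measured 13.4, 15.2 and 16.7 in controls and 19.9, 18.7 and 18.3 in L-RalyKO mice. All L-RalyKO mice were higher. The log2 fold change was 0.32 (limma adjusted p = 0.0618), and DESeq2 (adjusted p = 0.0375) and limma without control mouse 3 (adjusted p = 0.0293) called it. Cdkn2c, encoding the CDK4 and CDK6 inhibitor p18, measured 1.91, 1.999 and 1.68 against 2.12, 2.50 and 2.39, with no overlap and a log2 fold change of 0.22 (limma adjusted p = 0.240). Cdkn1c, the gene of p57, overlapped between groups, 1.02 to 1.97 in controls and 1.83 to 2.16 in L-RalyKO mice (log2 fold change 0.19, limma adjusted p = 0.533).

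The cyclins G and I have no settled role as activators of a cell cycle kinase, and Ccng1 is a known p53 target. Ccng2, which is linked to growth arrest, measured 11.8, 11.2 and 11.8 in controls and 17.2, 15.8 and 17.2 in L-RalyKO mice. Mice of each group lay close together, at 11.6 ± 0.332 and 16.7 ± 0.826 (SD, n = 3 each), and the groups were well apart. The ratio of means was 1.44 and the log2 fold change 0.49 (limma, 95% interval 0.34 to 0.64, SE 0.065, adjusted p = 0.00472), the smallest adjusted p of the 31 genes. It was called under each of the 16 alternatives, with an adjusted p between 2.85e-05 and 0.0265. Ccng2 lies on chromosome 5 from 93696283 to 93705257 on the plus strand (mm9). Ccng1 measured 48.2, 38.7 and 37.9 in controls and 57.7, 64.9 and 44.8 in L-RalyKO mice. L-RalyKO mouse 3 fell below control mouse 1, and the log2 fold change of 0.41 was not called by limma (adjusted p = 0.117), while DESeq2 called it (adjusted p = 0.0179) and so did limma without L-RalyKO mouse 3 (0.55, adjusted p = 0.0398). Ccni, with the largest value of the 35 genes, ranged from 160.5 to 171.7 in controls and from 157.9 to 169.3 in L-RalyKO mice (log2 fold change -0.01, interval -0.12 to 0.11, limma adjusted p = 0.953).

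The cyclin T genes differed in opposite directions, and only the difference of Ccnt1 passed the test. Ccnt1, a cyclin of P-TEFb, measured 9.75, 8.66 and 8.89 in controls and 5.82, 6.99 and 6.74 in L-RalyKO mice, or 9.10 ± 0.572 against 6.52 ± 0.618 (SD, n = 3 each). Every L-RalyKO mouse was below every control. The ratio of means was 0.716 and the log2 fold change -0.43 (limma, 95% interval -0.63 to -0.23, SE 0.088, adjusted p = 0.0261). The gene was called under 11 of the 16 alternatives. The settings that lost the call included those without control mouse 1 (limma adjusted p = 0.0941), without L-RalyKO mouse 1 (0.0856) or L-RalyKO mouse 3 (0.0558), and the test of every gene with a read (0.0647). Ccnt1 lies on chromosome 15 from 98369120 to 98401354 on the minus strand (mm9), and 695 of its exonic bases overlap the low transcript 9330020H09Rik on the plus strand, which had values of 1.19 to 1.75 in controls and 1.28 to 1.57 in L-RalyKO mice (limma adjusted p = 0.935).

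Ccnt2, the paralogue that also pairs with CDK9, measured 18.5, 17.5 and 18.7 in controls and 23.9, 20.8 and 20.8 in L-RalyKO mice. All L-RalyKO mice were higher, L-RalyKO mouse 1 the most, and the log2 fold change of 0.24 (SE 0.071) did not pass the test (limma adjusted p = 0.0802, and 0.0669 to 0.227 over the alternatives). L-RalyKO mouse 1 also had the lowest Ccnt1. Within each mouse the ratio of Ccnt2 to Ccnt1 values was 1.90, 2.02 and 2.11 in controls and 4.11, 2.98 and 3.09 in L-RalyKO mice, or 2.01 ± 0.103 against 3.39 ± 0.625 (SD, n = 3 each). Since the groups were already apart in both genes, in opposite directions, the ratio had to separate them and is given as a description. The sum of both values overlapped between groups, at 28.3, 26.2 and 27.6 in controls and 29.7, 27.8 and 27.6 in L-RalyKO mice (exact permutation p = 0.5, two-sided). Per kilobase of exon, which allows genes to be compared, the control means were 1.48 for Ccnt2 and 0.994 for Ccnt1, and the L-RalyKO means 1.77 and 0.712.

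The promoters of this pair are shown with that of Ccng2, the gene of the smallest adjusted p, to set the start regions of paralogues with opposite differences beside each other. Each is the RefSeq sequence from 250 bases before to 50 bases after the start site (GRCm38.p6), 5′ to 3′ on the strand of the gene, with capitals marking a CCAAT box read on either strand (CCAAT or its complement ATTGG). Ccnt1 is chr15:98567687-98567986 on the minus strand, Ccnt2 chr1:127773914-127774213 on the plus strand and Ccng2 chr5:93267323-93267622 on the plus strand.
Ccnt1: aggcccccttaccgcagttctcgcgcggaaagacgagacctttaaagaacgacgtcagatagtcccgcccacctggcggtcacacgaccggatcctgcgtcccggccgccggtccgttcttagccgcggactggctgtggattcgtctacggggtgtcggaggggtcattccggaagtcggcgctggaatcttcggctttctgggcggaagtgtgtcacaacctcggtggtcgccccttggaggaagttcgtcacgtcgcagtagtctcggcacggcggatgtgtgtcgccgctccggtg
Ccnt2: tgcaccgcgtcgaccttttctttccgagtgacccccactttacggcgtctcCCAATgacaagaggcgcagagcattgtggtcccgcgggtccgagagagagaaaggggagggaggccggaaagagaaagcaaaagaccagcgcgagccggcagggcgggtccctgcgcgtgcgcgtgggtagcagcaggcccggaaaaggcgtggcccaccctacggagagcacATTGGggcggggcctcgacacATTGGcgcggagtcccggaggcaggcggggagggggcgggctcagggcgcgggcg
Ccng2: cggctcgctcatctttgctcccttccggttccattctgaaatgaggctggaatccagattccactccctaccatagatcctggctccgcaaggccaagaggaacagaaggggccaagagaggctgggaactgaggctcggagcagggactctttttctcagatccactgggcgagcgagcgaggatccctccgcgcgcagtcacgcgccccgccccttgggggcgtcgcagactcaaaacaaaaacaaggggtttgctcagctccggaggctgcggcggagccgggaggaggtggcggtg
Ccnt2 held 3 CCAAT boxes, 1 on the plus strand whose first base was at -199 and 2 on the minus strand that began at -26 and -5 from the start site, while the letters were not in the windows of Ccnt1 and Ccng2. The forkhead letters TGTTTAC, searched on both strands and able to share at most 1 base with a CCAAT box, were in none of the 3. A promoter was at hand for 28 of the 35 genes, and CCAAT was in 16 of these (57.1%), Ccnb1, Ccnb2, Cdk1, Mki67 and Top2a among them, against 41.1% of all 27025 genes with a promoter and 37.4% of all 32851 promoters of this length. TGTTTAC was in Ccnd3 and Ccni, 2 of 28 (7.14%), against 4.05% of all genes and 3.65% of all promoters.

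The remaining transcriptional cyclins held smaller differences. Ccnl1 and Ccnl2 encode cyclins linked to pre-mRNA splicing. Ccnl1 measured 22.1, 24.7 and 21.7 in controls and 24.9, 29.5 and 28.5 in L-RalyKO mice, and Ccnl2 76.4, 84.3 and 65.7 in controls and 97.5, 95.2 and 89.1 in L-RalyKO mice. Both had groups that did not overlap, narrowly for Ccnl1, and log2 fold changes of 0.26 and 0.32 that were not called (limma adjusted p = 0.0912 and 0.0644). Ccnl2 was called by DESeq2 (adjusted p = 0.0134) and by limma without control mouse 2 (adjusted p = 0.0318). Ccnc of the Mediator kinase module, Ccnh of the CDK-activating kinase and Ccnk, the partner of CDK12, had groups that overlapped and log2 fold changes of -0.05, 0.14 and 0.03 (limma adjusted p = 0.664, 0.306 and 0.833).

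Of the transcriptional kinases, Cdk7, which activates other CDKs and serves in TFIIH, measured 21.8, 17.9 and 20.7 in controls and 16.8, 17.2 and 17.5 in L-RalyKO mice. All L-RalyKO mice were lower, narrowly at the nearest pair, and the log2 fold change of -0.21 was not called (limma adjusted p = 0.141). Cdk9, the kinase of P-TEFb, measured 27.5, 25.5 and 26.8 in controls and 31.2, 29.1 and 28.7 in L-RalyKO mice, all higher. Its log2 fold change was 0.15 (limma adjusted p = 0.169). Cdk8 of Mediator and Cdk12, an elongation kinase, overlapped between groups, with log2 fold changes of 0.13 and -0.08 (limma adjusted p = 0.326 and 0.477).

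Other genes of these pathways were counted in 8 lists of 165 genes, of which 124 were tested and limma called 8, 7 higher and 1 lower, with a median log2 fold change of 0.05. These 8 are 6.45%, close to the 6.55% of all tested genes. In limma none was called among 14 tested further cyclins, CDKs and inhibitors (median 0.07), 13 genes of the RB, E2F and DREAM complexes (median 0.03) and 10 of mitosis (median 0.06). A further 20 of the 30 mitosis genes were too low to be tested. At an unadjusted p under 0.05, limma counted 3, 2 and 1 genes in these lists, against 22.7% of all tested genes. Under the 16 alternatives, Cdk19 of the first list was called in 3 (lowest adjusted p = 0.0316) and E2f8 of the next in 1 (0.0269), and both are named here after their values were seen.

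Of 21 tested genes of DNA replication (median -0.01), 2 rose and 1 fell (14.3% called by limma, against 6.55% of all tested genes). Tk1, thymidine kinase, measured 16.8, 23.7 and 20.7 in controls and 28.0, 28.9 and 28.3 in L-RalyKO mice (log2 fold change 0.47, limma adjusted p = 0.0375). Mcm3, a subunit of the replicative helicase, was lower, at 4.41, 3.82 and 4.11 against 2.82, 3.02 and 3.08 (-0.36, limma adjusted p = 0.0484). Of 11 genes that control CDK activity (median 0.04), limma called 1 (9.09%, against the same 6.55%). Cdc25a, a phosphatase that activates CDKs, rose from 2.41, 2.49 and 2.68 to 4.13, 3.98 and 3.66 (0.48, limma adjusted p = 0.0185). Of these 3, none overlapped between groups.

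Among 23 tested genes of the p53 pathway (median 0.14, with 18 above 0, against 5925 of all 11580), limma called 2 (8.70%, against 6.55% of all tested genes), both higher, against 3.36% of all. The groups did not overlap in 5 of the 23 (21.7%, against 28.1% of all tested genes), with L-RalyKO higher in 4 and lower in 1. The lower gene was Trp53, not called (log2 fold change -0.18, limma adjusted p = 0.194) and named here after its values were seen. Plk3 and Sesn1 rose, and each was called under all 16 alternatives. Plk3, a stress-responsive kinase, measured 35.7, 59.1 and 51.1 in controls and 168.0, 149.6 and 127.7 in L-RalyKO mice (log2 fold change 1.61, limma adjusted p = 0.00176). Sesn1, a sestrin, measured 9.75, 9.99 and 9.54 against 13.1, 12.9 and 14.1 (0.41, limma adjusted p = 0.00993). Of 23 partners of the transcriptional cyclins (median -0.03), limma called 1 (4.35%, against the same 6.55%). Ell2, an elongation factor that binds P-TEFb, rose from 92.6, 96.2 and 98.3 to 115.2, 105.7 and 114.6 (0.22, limma adjusted p = 0.0427).

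Of 9 tested immediate early genes, which respond within minutes to growth signals and to tissue handling, limma called 1 (11.1%, against 6.55% of all tested genes). Ier2 rose from 9.24, 13.1 and 14.5 to 21.9, 25.0 and 17.0 (0.75, limma adjusted p = 0.0376), and the list had a median log2 fold change of 0.63. In 5 of the 9 every L-RalyKO mouse was above every control. This held for 14.4% of all tested genes. Besides Ier2 these were Myc, Jun, Junb and Egr1, none called in limma with all mice and named here after their values were seen. Under the 16 alternatives Junb was called in 4 (lowest adjusted p = 0.0211) and Myc in 3 (0.00133). The groups overlapped in Fos, Klf6, Ier3 and Atf3, with log2 fold changes of -0.02, -0.09, -0.47 and 0.09. Myc measured 3.22, 3.19 and 2.41 in controls and 25.3, 17.2 and 3.66 in L-RalyKO mice (1.74, limma adjusted p = 0.0907). Junb measured 7.63, 12.2 and 15.2 against 34.0, 30.1 and 16.1 (1.11, limma adjusted p = 0.0578). Egr1 measured 2.89, 5.15 and 6.57 against 19.3, 7.05 and 10.1 (1.11, limma adjusted p = 0.0908). L-RalyKO mouse 1 was the highest mouse in Myc, Jun, Junb and Egr1, and mouse 3 of that group was the lowest of its group in Myc, Jun and Junb. The part of this list in the values of Ccnd1 and Cdkn1a was not tested. Leaving out 1 mouse ended the call of Mcm3 whichever mouse it was, and of Tk1 for every mouse but control mouse 2. The call of Cdc25a ended without control mouse 1 or L-RalyKO mouse 1 or 2, that of Ell2 without control mouse 1 or 2 or L-RalyKO mouse 1 or 3, and that of Ier2 without control mouse 1 or 2 or L-RalyKO mouse 1 or 2. The highest adjusted p over the alternatives was 0.153 for Mcm3, 0.105 for Tk1, 0.0767 for Cdc25a, 0.148 for Ell2 and 0.114 for Ier2.

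**Figure D4:**
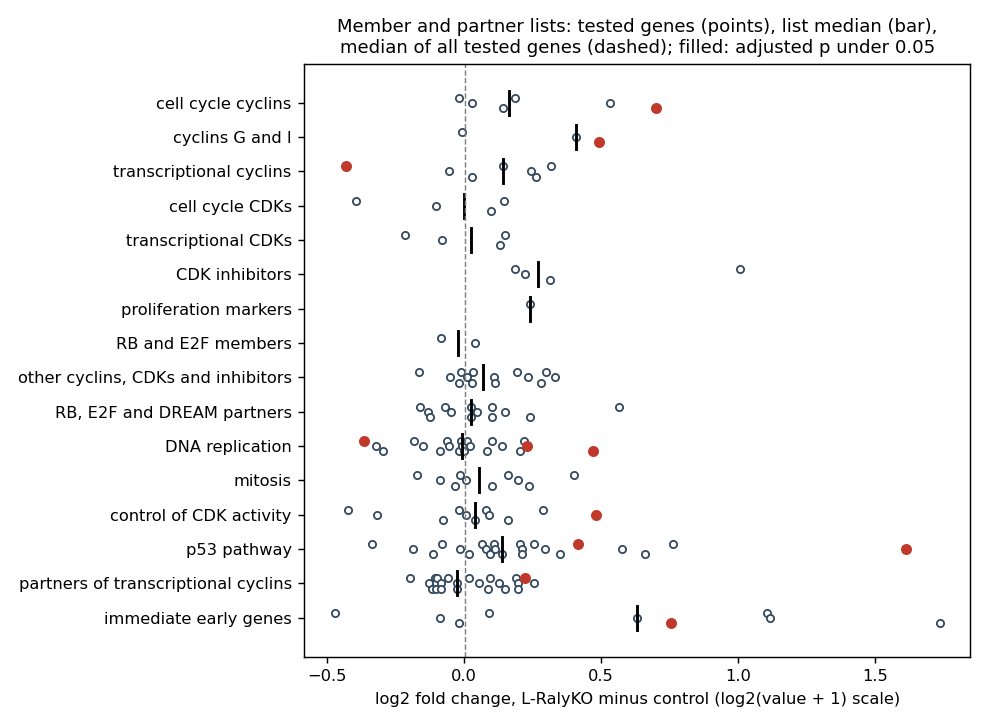
Log2 fold change (L-RalyKO minus control, log2(value + 1) scale, horizontal axis) of each tested gene (points) in the 8 role groups and 8 pathway lists, with the list median as a bar, the median of all tested genes as a dashed line and genes with an adjusted p under 0.05 filled. The immediate early genes have a median of 0.63 with 1 of 9 called, and the medians of the other pathway lists lie between -0.03 and 0.14.

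In whole liver, fewer cells of a type and less RNA per cell cannot be told apart. Among marker lists of liver cell types, 33 genes were tested and 1, the hepatocyte factor Hnf4a, was called (3.03%, against 6.55% of all tested genes), at 520.3, 542.4 and 680.5 in controls and 899.6, 808.6 and 828.8 in L-RalyKO mice (log2 fold change 0.55, limma adjusted p = 0.0155, with the call lost without control mouse 1 or 2 or L-RalyKO mouse 1 and a highest value of 0.0614). The summed level of 6 hepatocyte markers was 80620 to 89630 in controls and 90390 to 91590 in L-RalyKO mice, all higher. The sums of the other lists overlapped between groups: 8 macrophage markers spanned 130.5 to 204.6 and 133.8 to 172.4, 9 lymphocyte markers 2.08 to 3.54 and 2.39 to 2.58, 3 neutrophil markers 0.447 to 0.807 and 0.237 to 0.785, 6 endothelial markers 175.8 to 184.6 and 153.7 to 193.9. For 7 stellate and fibroblast markers the sums were 214.1 to 238.3 and 205.2 to 270.0, for 5 cholangiocyte markers 32.5 to 34.7 and 32.2 to 41.0, and for 5 erythroid markers 665.8 to 1104 and 642.1 to 1260. No marker was at 0 in all libraries. No lymphocyte or neutrophil marker passed the filter on low values, and the part of any of these cells in the values of the low proliferation genes was not tested.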

How the data were processed

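Liver RNA of 3 L-RalyKO and 3 control mice was analysed. RNA-seq libraries were stranded and paired-end. The study's methods name alignment with TopHat v2.0.2 to mm9 and quantification with Cufflinks v2.0.2, but how the authors made the deposited values from alignments, and whether strand was used, is not given in the sources used here. The deposited values are a signal: reads per gene divided by a scaled library size. Within a tolerance of 0.01, 100% were whole multiples of the value of 1 read, so reads were recovered, and the scaling factors equalled edgeR's TMM factors. ATAC-seq and ChIP-seq samples of the series were not analysed here. The table named 24054 genes, of which 6838 had no read.

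The log2(value + 1), a scale that understates changes of low genes, was fitted for genes averaging 1 or more. The fit used limma 3.58.1 (R 4.3.3) with an intensity trend and Benjamini-Hochberg adjustment over 11580 genes. Each GEO sample was taken as 1 mouse, and p-values measure the spread between these samples. The 35 genes and all lists were chosen with earlier results of these data known. Of the 35, genes with an adjusted p under 0.05 or without overlap between groups are given by mouse, and so are 6 others (Ccnd2, Ccng1, Cdk6, Ccnb1, Ccnb2 and Top2a), chosen after their values were seen. The rest are given by range or fold change, and list genes are named where the adjusted p was under 0.05. Alternatives were edgeR 4.0.16 quasi-likelihood (774 genes called), DESeq2 1.42.0 and limma voom on recovered reads, limma without trend, total count and upper-quartile scaling, a pseudocount of 0.1, a mean of at least 0.5, all genes with a read, a replicate block, and leaving out each mouse. The main limma fit, edgeR, DESeq2 and limma voom were tested on simulated data, and the other settings were not. Intervals are 95%. Gene positions and exon lengths came from GENCODE vM1 (mm9) and promoters from RefSeq (GRCm38.p6), matched by symbol. 1 marker, Ly6g, had no matching symbol. The values of 1 called gene of the DNA replication list are not reported here.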

Additional observations from a re-analysis of the deposited data

How the results depend on the processing

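Raly kept its direction and call under all 16 alternatives (log2 fold change -2.84 to -2.63), and so did Ccnd1 and Ccng2. Over the alternatives of the 31 tested genes, 472 values stayed on the same side of the threshold and in the same direction, 8 gained a call, 5 lost it and 11 turned in sign. The count over all genes was 484 when every gene with a read was tested, which tests more genes, and 335 to 812 when 1 mouse was left out (368 without control mouse 1), against 758. DESeq2 called 1088 genes (541 higher) and 6 of the 31, 5 of them higher. Leaving out 1 mouse gave 2 to 5 calls, 2 to 4 higher and 0 to 1 lower, and testing every gene with a read gave 0 lower. Of the other lists, 9 genes were called in the main test, 17 by DESeq2, 5 without a trend and 2 to 13 with 1 mouse left out. The causes of these differences were not tested. The median of the 31 genes ran from 0.11 with total count scaling to 0.16. Total count scaling moved the median of all genes to -0.03 and gave -0.0008 for Ccnf and -0.0037 for Ccnk. With 1 mouse left out, log2 fold changes near 0 ran from -0.0784 to 0.0484 for Ccnd2, -0.0443 to 0.0905 for Ccnf, -0.0284 to 0.0217 for Ccni, -0.0195 to 0.0594 for Ccnk and -0.127 to 0.132 for E2f1.

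Replicate numbers are shared between groups, but the labels do not say that they pair mice. Deviations of same-numbered mice correlated at 0.066, -0.024 and 0.020 across genes, so the numbers were not read as pairs. A fit with the replicate number as a block called 704 genes and 3 of the 31 (Ccnd1, Ccng2 and Ccnl2), with 0 lower. There Ccnl2 had a limma adjusted p of 0.0371 and Ccnt1 of 0.0606.

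Among the 35 genes, Ccnb1 and Ccnb2 rest on the fewest reads, at 4 to 13 and 11 to 22 reads per library. Genes beyond those described above also share exonic bases with the opposite strand. Ccnd3 shares 353 with Bysl (mean value 14.9), Cdk7 213 with Ccdc125 (4.99), and Rb1 488 with Rcbtb2 (32.5) and 408 with Lpar6 (16.65).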

Other observations

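Per kilobase of exon, a scale on which genes can be compared, the control mean levels of the 35 genes spanned from 0.0346 for Ccnb1 to 50.03 for Ccni. The highest after Ccni were Ccnl2 at 14.3, Ccnd3 at 12.5, Ccng1 at 11.8 and Ccnk at 8.80. Among the D cyclins the order was Ccnd3 at 12.5, Ccnd1 at 2.77 and Ccnd2 at 1.47 in controls, and 13.9, 4.69 and 1.45 in L-RalyKO mice. The ratio of Ccnd3 to Ccnd1 values was 2.56, 3.06 and 2.43 in controls and 1.92, 1.95 and 1.45 in L-RalyKO mice, with no overlap (exact permutation p = 0.1, two-sided). Here too Ccnd1 alone already separated the groups, and the ratio is a description. Mki67 at 0.146 and Top2a at 0.0821 were among the lowest levels per kilobase.

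The spread between mice differed among the genes. The median coefficient of variation of the 31 tested genes was 9.57% in controls and 6.90% in L-RalyKO mice, against 6.70% and 6.25% over all tested genes. Ccne1, which rests on only 28 to 87 reads per library, had 36.4% in controls and 1.10% in L-RalyKO mice. The ratio of Cdkn1b to Cdkn1a values was 2.23, 6.10 and 1.55 in controls and 1.74, 1.43 and 1.49 in L-RalyKO mice. These groups overlapped (exact permutation p = 0.2, two-sided), and no test of the spread was made.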
